A study of Mus musculus with 2 samples.

Results

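Transcription factors that pattern mesenchyme were followed in mouse skin fibroblasts after IL-17A. The 56 factors were chosen by gene symbol from families that specify position and lineage in connective tissue, with earlier results of these data known. Of these factors, 52 had a row among the 19674 gene rows of the count table. A gene was called measured when it held at least 50 counts summed over both libraries, and 47 of the factors passed, as did 13534 genes in all. Nearest to this minimum were Lmx1b with 61 and Tbx4 with 63 summed counts above it and Foxd1 with 44 below it. The cells were the line MDFB, labelled as wild-type skin fibroblasts, grown in vitro and given IL-17A, an inflammatory cytokine, or vehicle. There was 1 library per group, both with batch label 1, and the labels gave no dose and no duration. No test and no check on replicates was therefore possible. The bounds or interval given with a ratio are at 95% and cover counting error only, leaving out variation between cultures.

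Patterning factors act in networks. Homeobox, T-box, forkhead, SOX and bHLH proteins are switched on in the embryo by BMP, FGF, Wnt, hedgehog and retinoid signals, and together they fix where a mesenchymal cell lies and which tissue it forms. Many stay on in adult dermal fibroblasts, where they record the origin of the cell. Others, such as Runx2, Sox9 and Scx, direct bone, cartilage or tendon, and the Snai and Zeb proteins repress epithelial genes.

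The libraries held 23559416 counts with IL-17A and 24427027 with vehicle. Levels are given in CPM, counts scaled to library size with TMM, and ratios are IL-17A over vehicle. The IL-17 target genes Cxcl1, Lcn2 and Il6 had ratios of 20.5, 54.0 and 12.8. The fibroblast gene Col1a1 had 348690 counts with IL-17A and 590781 with vehicle, and log2 ratios were -0.64 for Col1a1, -0.59 for Vim and -0.06 for Pdgfra. Of 12 fibroblast markers, all measured, 1 (8.33%) was past 2-fold upwards, Dcn at 2.62, and 1 (8.33%) downwards, Fap at -1.22. Among all measured genes these shares were 5.19% and 3.69%. Among markers of other cells, Krt10, the keratinocyte gene with the most counts, had 27 counts with IL-17A and 28 with vehicle, the endothelial Cdh5 and Tek had 47 and 18 with IL-17A against 33 and 49 with vehicle, and the muscle gene Acta1 had 384 and 628. The melanocyte regulator Mitf had 827 and 465 counts. Krt1, Cd3e and Tyr were at 0 in both libraries. Leukocyte and mural markers were more abundant and are given beside the factors they bear on.

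Among the 47 measured factors, 11 (23.4%) had a ratio of at least 2-fold upwards, as did 5.19% of all measured genes, and 7 (14.9%) were at least 2-fold lower, against 3.69% of all measured genes. In either direction this made 18 factors, or 38.3%, beside 8.88% of all measured genes. As the list was chosen with earlier results known, these shares do not describe patterning factors in general. Among 33 measured patterning factors outside the list, 9.09% were higher and 6.06% lower. The 47 factors did not share a direction. Their median log2 ratio was -0.09, near the 0.00 of all measured genes, with 21 above 0 and 26 below. Their median absolute log2 ratio was 0.72, against 0.21 for all measured genes. The counting interval lay off 0 for 38 of 47 factors (80.9%), compared with 55.1% of all measured genes. Of the 18 past 2-fold, 9 had an interval wholly beyond that limit, namely Msx2, Foxf2, Sox11, Twist2 and Foxp1 on the higher side and Osr2, Osr1, Foxp2 and Nfia on the lower side.

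**Figure D1:**
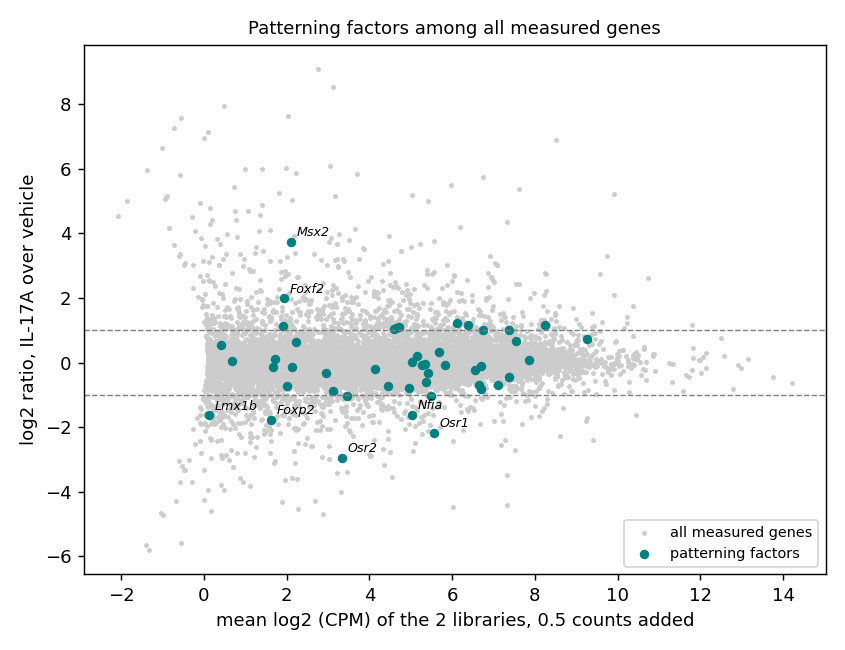
Log2 ratio of IL-17A over vehicle against mean log2 CPM for the 13534 measured genes (grey) and the 47 measured patterning factors (green), with dashed lines at 2-fold. Factors lie on both sides of 0, with Msx2 at 3.75 as the highest and Osr2 at -2.94 as the lowest.

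Promoter sequence is shown for Twist1 and Twist2, close paralogues whose ratios lay on opposite sides of 0. Each line is the 250 bases upstream of the RefSeq start on GRCm38.p6, 5′ to 3′ on the strand of the gene. Capitals mark matches on either strand to any of 5 motifs. They were the kB motif of NF-kB proteins and the AP-1 motif, searched as TGANTCA. A further motif was that of C/EBP proteins, searched as TTGCNNAA. The E2-box, which is bound by Snai and Zeb proteins, was searched as CACCTG. The last was the TATA box of core promoters, searched as TATAAA, and no match overlapped another in these windows. The Twist1 window lies at chr12:33957421-33957670 and the Twist2 window at chr1:91801211-91801460, both on the plus strand.
Twist1: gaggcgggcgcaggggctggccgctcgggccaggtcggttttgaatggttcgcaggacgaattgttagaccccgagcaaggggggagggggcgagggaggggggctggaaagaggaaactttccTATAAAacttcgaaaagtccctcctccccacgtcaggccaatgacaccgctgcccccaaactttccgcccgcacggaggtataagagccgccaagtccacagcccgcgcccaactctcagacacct
Twist2: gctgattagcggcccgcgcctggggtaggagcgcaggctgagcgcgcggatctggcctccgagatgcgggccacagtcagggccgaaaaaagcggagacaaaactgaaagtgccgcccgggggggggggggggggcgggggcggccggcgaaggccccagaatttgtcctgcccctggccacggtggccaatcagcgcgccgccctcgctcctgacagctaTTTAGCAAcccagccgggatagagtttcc

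The Twist1 window held a TATA match starting 126 bases before the start site. The Twist2 window held a C/EBP match starting 29 bases before it. RefSeq windows were found for 35 of the 56 factors, 44 windows in all, and were compared with all 32851 windows of the same length. The kB motif occurred in 4.55% of the factor windows and 3.90% of all windows, AP-1 in 6.82% and 6.75%, C/EBP in 13.6% and 9.56%, the E2-box in 13.6% and 17.2%, and TATA in 9.09% and 12.4%. Such matches describe letters in a short window and are not binding sites.

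The bHLH factors included the highest level per kilobase in the IL-17A library, that of Twist2. Twist2, a repressor of mesenchymal differentiation that is prominent in dermis, stood at 453 CPM with IL-17A and 203 CPM with vehicle, from 10423 and 5088 counts. It was 2.23-fold higher, with bounds of 2.15 and 2.30. Twist1, its close relative, stood at 78.1 CPM with IL-17A and 137 CPM with vehicle, 1.76-fold lower, with bounds of 1.66 and 1.86 and so within the 2-fold limit. Per kilobase of transcript, the pair had near-equal levels with vehicle, at 80.6 CPM for Twist2 and 84.4 for Twist1, while with IL-17A Twist2 stood at 179 and Twist1 at 48.0. Tcf4, an E-protein that dimerises with tissue-specific bHLH factors, had 109 CPM with IL-17A and 175 CPM with vehicle, a log2 ratio of -0.69. Scx, which drives tendon formation, was barely detected, with 37 counts in the IL-17A library and 39 in the vehicle library.

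Among the paired-type homeobox genes, Prrx1 and Prrx2, which act in limb and craniofacial mesenchyme, also parted. Prrx1 was the factor with the most counts, 18158 with IL-17A and 11983 with vehicle, and stood at log2 ratio 0.72 (interval 0.69 to 0.75). Prrx2 had 31.3 CPM with IL-17A and 64.0 CPM with vehicle and was 2.04-fold lower, with bounds of 1.87 and 2.23. Alx4, a limb and frontonasal factor, had 148 and 294 counts in the IL-17A and vehicle libraries, a log2 ratio of -0.87. Shox2, which patterns the proximal limb, had 914 and 1022 counts, and its interval of -0.17 to 0.09 spanned 0. Pitx1, a hindlimb factor, fell below the minimum with 7 counts with IL-17A and 22 with vehicle.

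The NK-like and LIM homeobox genes held the largest ratio of the set. Msx2, a homeobox gene that responds to BMP in limb buds, skull and skin appendages, had 358 counts with IL-17A and 29 with vehicle. It was 13.4-fold higher, with bounds of 9.18 and 20.3, and per kilobase its level was 6.34 CPM with IL-17A and 0.473 CPM with vehicle, which in the IL-17A library lay far under the 179 of Twist2 and the 159 of Prrx1. Its paralogue Msx1 had 16 and 14 counts and was below the minimum. En1, which marks a dorsal dermal fibroblast lineage, stood at 152 CPM with IL-17A and 75.0 CPM with vehicle, a log2 ratio of 1.02. With libraries scaled by their totals it was 0.95, and with upper-quartile scaling 0.98, both inside the limit. Lmx1b, which specifies the dorsal side of the limb, had 14 counts with IL-17A and 47 with vehicle and was 3.09-fold lower, with a wide interval of 1.67 to 6.08. Dlx5, a skeletal homeobox gene, had 0 counts with IL-17A, which allows up to 3 counts or 0.130 CPM, and 1 count with vehicle.

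**Figure D2:**
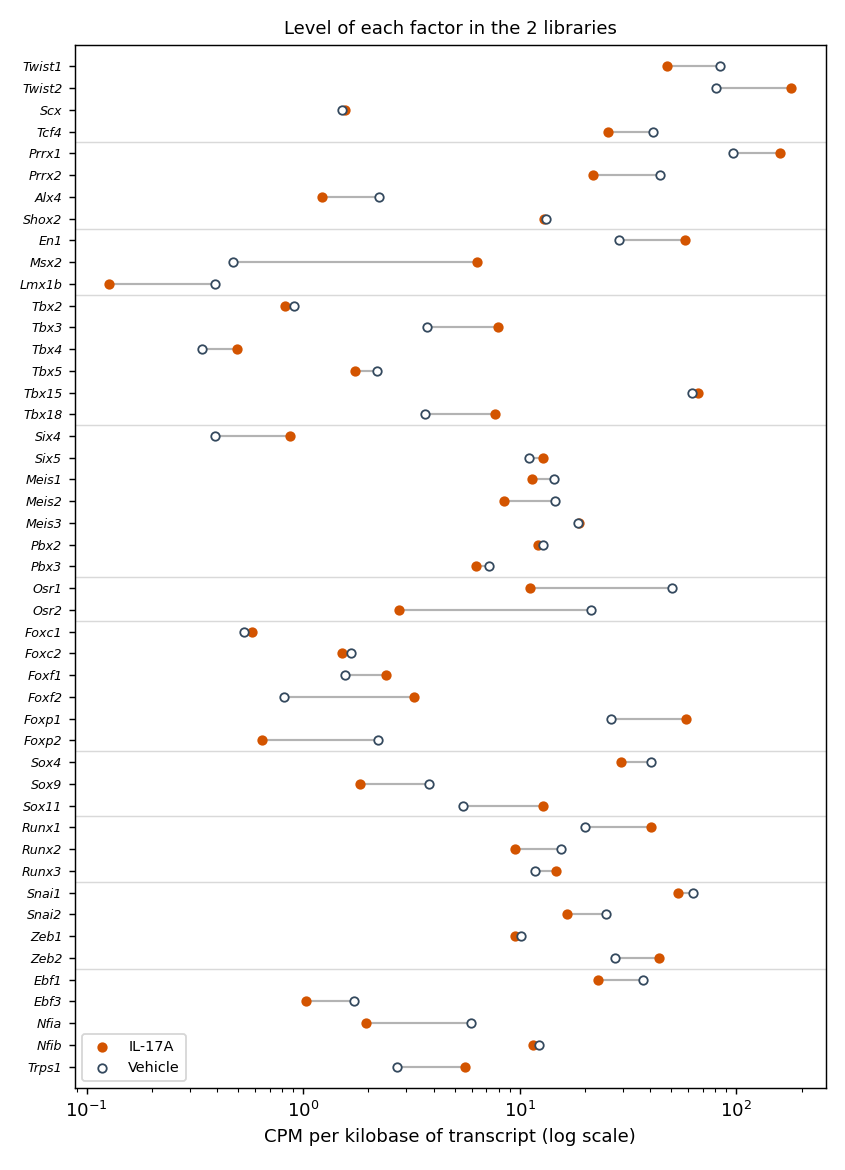
Level of each of the 47 measured factors in CPM per kilobase of transcript on a log axis, with the IL-17A library in filled orange and the vehicle library in open circles, and grey lines between families. Levels with IL-17A ran from 0.127 for Lmx1b to 179 for Twist2, and with vehicle from 0.342 for Tbx4 to 96.8 for Prrx1.

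Of the 6 T-box genes, 2 (33.3%) were at least 2-fold higher and 0 lower, beside 5.19% and 3.69% of all measured genes. Tbx3, a repressor active in limb and mammary development, had 886 counts with IL-17A and 453 with vehicle and was 2.13-fold higher, with bounds of 1.90 and 2.39. Tbx18, a factor of somite, heart and mural cell development, had 828 and 426 counts and was 2.11-fold higher, with bounds of 1.88 and 2.38. Tbx15, which sets the dorsoventral pattern of the coat through the dermis, had the highest level per kilobase of the T-box genes, 66.6 CPM with IL-17A and 62.7 CPM with vehicle, and stood at 0.09. Tbx2 had 69 and 82 counts, and the hindlimb factor Tbx4 had 36 and 27, each with an interval across 0. The forelimb and heart factor Tbx5 had 157 and 215 counts, a log2 ratio of -0.33.

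Six4, Six5 and the TALE homeobox genes had together the smallest median absolute log2 ratio of the 11 families, 0.21, equal to 2 decimals to that of all measured genes. Six4, which acts in muscle and sensory development, was the 1 member of 7 past 2-fold, with 128 counts with IL-17A and 63 with vehicle, 2.21-fold higher, with bounds of 1.62 and 3.04. Six5 stood at 0.21. Of the TALE proteins, which serve as DNA-binding partners of Hox factors, Meis2 had 23.9 CPM with IL-17A and 41.0 CPM with vehicle, a log2 ratio of -0.78, and Meis1 stood at -0.34. Meis3, Pbx2 and Pbx3 lay at 0.02, -0.07 and -0.21.

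Both odd-skipped zinc finger genes were lower with IL-17A. Osr1, a factor of embryonic connective tissue and kidney, had 515 counts with IL-17A and 2526 with vehicle and was 4.51-fold lower, with bounds of 4.10 and 4.97. Osr2, which acts in palate and joint formation, had 84 and 703 counts and was 7.70-fold lower, with bounds of 6.13 and 9.77. Summed over the pair, the level was 26.0 CPM with IL-17A and 129 CPM with vehicle. Markers of mural cells, the contractile cells around vessels, moved the same way. Of 8 listed, 7 had a row and 6 were measured. Of these 6, 5 (83.3%) were at least 2-fold lower and 0 higher, beside 3.69% and 5.19% of all measured genes. The summed level of the mural markers was 116 CPM with IL-17A and 305 CPM with vehicle, and none with a row was at 0. Cspg4, which held the most counts of them, had 1070 and 2908 counts, Myh11 had 135 and 1101, and Kcnj8 had 6 and 100. The part of these transcripts in the lower factors was not tested. In bulk RNA, fewer cells of a type and less RNA per cell cannot be told apart.

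**Figure D3:**
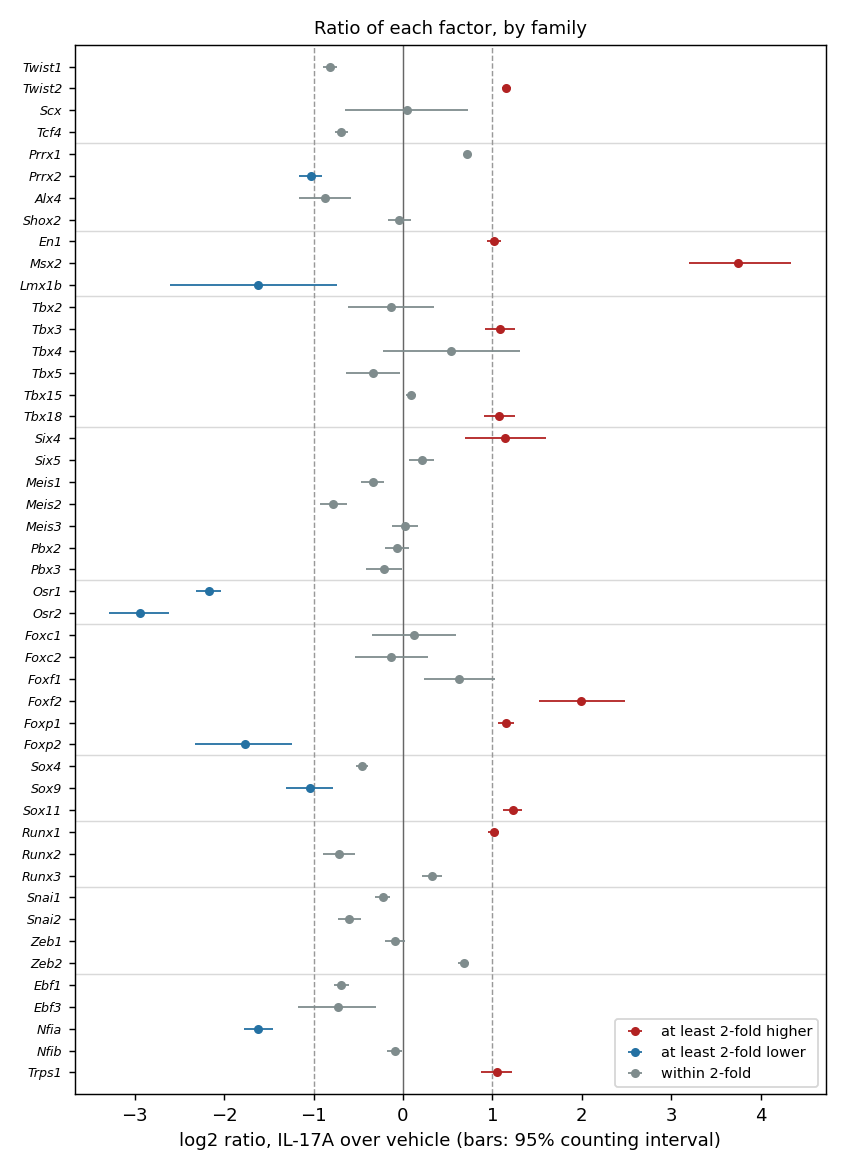
Log2 ratio of IL-17A over vehicle for the 47 measured factors, ordered by family, with 95% counting intervals as bars and dashed lines at 2-fold. Red marks the 11 factors at least 2-fold higher and blue the 7 at least 2-fold lower.

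The forkhead genes contained the pair of paralogues that lay farthest apart. Foxp1, a repressor in many mesenchymal and blood lineages, stood at 124 CPM with IL-17A and 55.7 CPM with vehicle, 2.23-fold higher, with bounds of 2.09 and 2.37. Foxp2, its relative, had 38 counts with IL-17A and 141 with vehicle and was 3.41-fold lower, with bounds of 2.37 and 5.02. Foxf2, a hedgehog-responsive gene of gut and palate mesenchyme, had 176 and 48 counts and was 3.98-fold higher, with bounds of 2.88 and 5.60. Foxf1, its paralogue, had 134 and 94 counts, a log2 ratio of 0.63. Foxc1 and Foxc2, which act in somite, skull and vessel formation, were scarce and had intervals across 0, with 78 counts in each library for Foxc1 and 95 and 113 for Foxc2. Foxd1, a kidney stroma and dermal lineage factor, was below the minimum with 10 counts with IL-17A and 34 with vehicle.

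SOX genes also went both ways. Sox11, which with Sox4 keeps mesenchymal progenitors alive, had 107 CPM with IL-17A and 45.7 CPM with vehicle and was 2.34-fold higher, with bounds of 2.18 and 2.51. Sox4 stood at a log2 ratio of -0.46, with a level per kilobase of 29.3 CPM with IL-17A and 40.4 CPM with vehicle, above the 12.9 and 5.49 of Sox11. Sox9, the main regulator of cartilage, had 175 counts with IL-17A and 392 with vehicle and was 2.06-fold lower, with bounds of 1.72 and 2.48. Sox5, a cofactor of Sox9, was below the minimum with 15 and 11 counts.

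Runx1 and Runx2 lay on opposite sides of 0. Runx1, known from blood formation, stood at 237 CPM with IL-17A and 117 CPM with vehicle, 2.02-fold higher, with bounds of 1.93 and 2.11. Scaling by total counts or by the upper quartile put it inside the 2-fold limit. Runx2, the main regulator of osteoblasts, had 390 counts with IL-17A and 697 with vehicle, a log2 ratio of -0.72. Runx3, which acts in lymphocytes and cartilage, had 1313 and 1141 counts and stood at 0.32. Of 8 leukocyte markers, 7 were measured and 0 passed 2-fold in either direction, beside 8.88% of all measured genes. The summed level of the leukocyte markers was 271 CPM with IL-17A and 197 CPM with vehicle. Most of it was Lyz2, with 5227 and 3836 counts, and Ptprc had 88 and 87. The part of leukocyte RNA in the Runx values was not tested.

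The 4 EMT zinc finger genes, which repress epithelial adhesion genes, all lay within 2-fold. Snai1 stood at 87.0 CPM with IL-17A and 102 CPM with vehicle, and Snai2 at 33.4 and 50.6 CPM, with log2 ratios of -0.23 and -0.60. Zeb1 had an interval of -0.20 to 0.02. Zeb2 held the most counts of the 4, 5382 with IL-17A and 3657 with vehicle, at a log2 ratio of 0.68. Among 9 measured EMT effector genes of the 21 listed, 1 (11.1%) was higher and 1 (11.1%) lower, beside 5.19% and 3.69% of all measured genes. The tight-junction gene Cldn1 was 11.9-fold lower, with 12 counts with IL-17A and 155 with vehicle. Cdh1, which encodes E-cadherin, had 9 counts with IL-17A and 1 with vehicle.

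In the remaining group, Nfia, a nuclear factor I protein, had 427 counts with IL-17A and 1423 with vehicle and was 3.07-fold lower, with bounds of 2.75 and 3.42. Nfib, its paralogue, had 101 and 108 CPM and stood at -0.09. Ebf1, a factor of adipocyte, mural and B cell lineages, had 79.0 CPM with IL-17A and 127 CPM with vehicle, and Ebf1 and Ebf3 stood at nearly the same log2 ratio, -0.69 and -0.73. Trps1, a GATA-type repressor that acts in cartilage and hair follicle development, had 800 counts with IL-17A and 421 with vehicle. Its level was 2.07-fold higher, with bounds of 1.83 and 2.33. It was inside the limit under total-count scaling.

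Paralogues were then compared with each other, since the change of one relative to another does not depend on library scaling. The 18 pairs were drawn up after the values were seen, by subfamily, with both genes measured. Not every measured relative was paired. Runx3, on the same side of 0 as Runx1 at 0.32 (interval 0.21 to 0.44), was left out. So was Meis3, a relative of the paired Meis1 and Meis2, at 0.02 (interval -0.13 to 0.17). In 15 of the 18 the counting interval of the difference between log2 ratios lay off 0. No such count was made for other pairs of genes, and at this depth 55.1% of single measured genes had an interval off 0. In 5 pairs the genes had intervals on opposite sides of 0. These 5 were Foxp1 with Foxp2, Twist1 with Twist2, Prrx1 with Prrx2, Runx1 with Runx2 and Sox4 with Sox11. The ratio of Foxp1 to Foxp2 was 7.59-fold (interval 5.24 to 11.2) larger with IL-17A than with vehicle. The balance of Twist1 and Twist2 changed by 3.92-fold (interval 3.67 to 4.19) in favour of Twist2. That of Prrx1 and Prrx2 changed by 3.36-fold (interval 3.07 to 3.69) towards Prrx1, that of Runx1 and Runx2 by 3.32-fold (interval 2.91 to 3.80) towards Runx1, and that of Sox4 and Sox11 by 3.22-fold (interval 2.96 to 3.50) towards Sox11. Per kilobase, Prrx1 stood at 7.33 times the level of Prrx2 with IL-17A and 2.18 times with vehicle. Runx1 stood at 4.28 times the level of Runx2 with IL-17A and 1.29 times with vehicle. These levels depend on the transcript chosen, 5861 bases for Runx1 and 1791 for Runx2. Without length, Runx1 had 237 CPM with IL-17A and 117 CPM with vehicle, and Runx2 had 16.95 and 27.87 CPM.

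**Figure D4:**
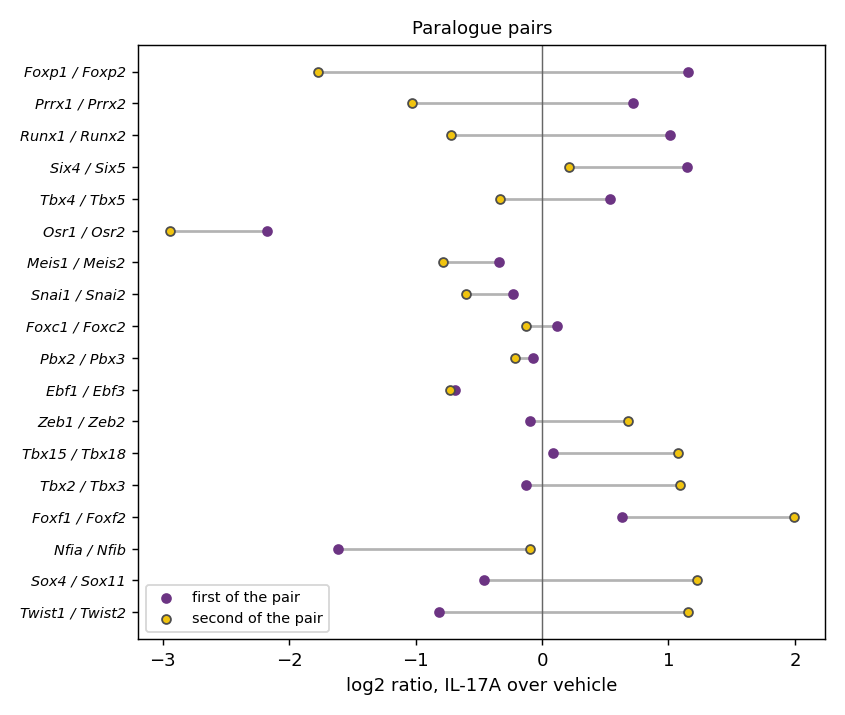
Log2 ratio of IL-17A over vehicle for both genes of 18 paralogue pairs, with the gene named on the left of each label in purple and the other in yellow. The difference between the genes of a pair runs from 2.92 for Foxp1 minus Foxp2 to -1.97 for Twist1 minus Twist2.

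The pairs whose interval spanned 0 were Pbx2 with Pbx3, Foxc1 with Foxc2 and Ebf1 with Ebf3. The difference for Ebf1 minus Ebf3 was 0.04 (interval -0.40 to 0.49) on the log2 scale, and that for Pbx2 minus Pbx3 was 0.14 (interval -0.10 to 0.38). Osr1 and Osr2, both lower, differed by 0.77 (interval 0.41 to 1.14), with Osr2 lower by more. Nfia minus Nfib was -1.52 (interval -1.70 to -1.34).

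Some members lie side by side in the genome, in the GENCODE M21 annotation of GRCm38, the assembly also called mm10. On chromosome 5, Tbx3 (119670669 to 119684724) and Tbx5 (119832668 to 119885219) are 148 kb apart, and their ratios differed by 2.68-fold (interval 2.10 to 3.41), with Tbx3 the higher. On chromosome 13, Foxf2 (31625816 to 31631403) and Foxc1 (31806633 to 31812476) are 175 kb apart and differed by 3.65-fold (interval 2.29 to 5.89). On chromosome 8, Foxf1 (121084386 to 121088144) lies 28.0 kb from Foxc2 (121116171 to 121118895), and these differed by 1.69-fold (interval 1.14 to 2.52). Tbx4 and Tbx2, 44.5 kb apart on chromosome 11, differed by 1.58-fold with an interval that held 1. In the annotation, exons of 14 measured factors, 6 of them past 2-fold, overlap an exon on the opposite strand. Of all 47 measured factors, 11 were at least 2-fold higher and 7 lower. Such overlaps were not counted for other genes. Rsrc1, opposite Shox2, had 1245 counts with IL-17A and 1451 with vehicle, more than Shox2 itself. The partners of called factors with a row had fewer counts than those factors: Gm29100, opposite Twist2, had 94 counts with IL-17A and 42 with vehicle, D030062O11Rik, opposite Tbx18, had 75 and 35, and Tbx3os1, opposite Tbx3, had 15 and 5. The library kit marks strand, but the strand setting of the counting is not given in the sources used here, so reads of such overlaps are uncertain.

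Among 28 measured cofactors of these proteins, of 32 listed, 2 (7.14%) were higher and 2 (7.14%) lower, near the 5.19% and 3.69% of all measured genes, with a median log2 ratio of -0.17. The lower genes were Ldb2, a LIM-domain binding cofactor, with 136 counts with IL-17A and 1050 with vehicle at 7.10-fold lower, with bounds of 5.94 and 8.56, and Id4, an inhibitor of bHLH dimers, at 3.36-fold lower. The higher were Foxp4, a forkhead partner of Foxp1, at 2.33-fold and the LIM-only protein gene Lmo4 at 2.02-fold. The E-protein genes Tcf3 and Tcf12, dimer partners of Twist proteins, stood at -0.25 and -0.21, and Id1, Id2 and Id3 at -0.99, 0.33 and 0.30.

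The list of patterning signals held ligands, antagonists, receptors, enzymes and response genes of the embryonic pathways. Of 31 measured, 7 (22.6%) were higher and 5 (16.1%) lower, beside 5.19% and 3.69% of all measured genes. The median log2 ratio of the list was 0.51. The BMP antagonist Grem1 had 45608 counts with IL-17A and 11615 with vehicle and was 4.27-fold higher, with bounds of 4.18 and 4.36, whereas the BMP antagonist Nog was 2.19-fold lower. Of the BMP ligands, Bmp2 had 61 counts with IL-17A and 20 with vehicle and was 3.31-fold higher, and Bmp4 had 45 and 98 and was lower by a fold with bounds of 1.39 and 2.92. On the FGF side, Fgf7 was 2.86-fold higher, the FGF receptor gene Fgfr2 2.07-fold, and the FGF response genes Etv4 and Dusp6 3.26-fold and 2.26-fold. Two-way movement was seen here too, with the response genes Etv5 at a log2 ratio of 0.86 and Spry2 at -0.38 (interval -0.51 to -0.25). Fgf18 had 3 counts with IL-17A and 64 with vehicle, a ratio of 19.6-fold lower with an interval of 6.42 to 97.7. The inhibitory Smad7 was 2.26-fold higher. The retinoic acid-producing enzymes did not share a direction. Aldh1a3 and Aldh1a1 were lower, with 48 and 11 counts with IL-17A and 197 and 39 with vehicle. Aldh1a2, below the minimum, had more counts with IL-17A, 27 against 11 with vehicle.

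Skeletal and tendon lineage genes were measured in 9 of 27 cases. Among the others, Bglap, Col2a1 and Acan had no row, and Alpl, Comp and Sp7 were below the minimum. Of the 9 measured, 3 (33.3%) were higher and 2 (22.2%) lower, beside 5.19% and 3.69% of all measured genes. Spp1, which encodes the bone and wound protein osteopontin, had 19972 counts with IL-17A and 6704 with vehicle and was 3.24-fold higher. The tendon genes Thbs4 and Mkx were 2.56-fold and 2.99-fold higher, whereas Fmod, a collagen-binding proteoglycan of tendon, was 2.44-fold lower and Tnmd, a tendon membrane protein, stood at -0.92. Sox6, a partner of Sox9, was 2.42-fold lower on 16 counts with IL-17A and 42 with vehicle.

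**Figure D5:**
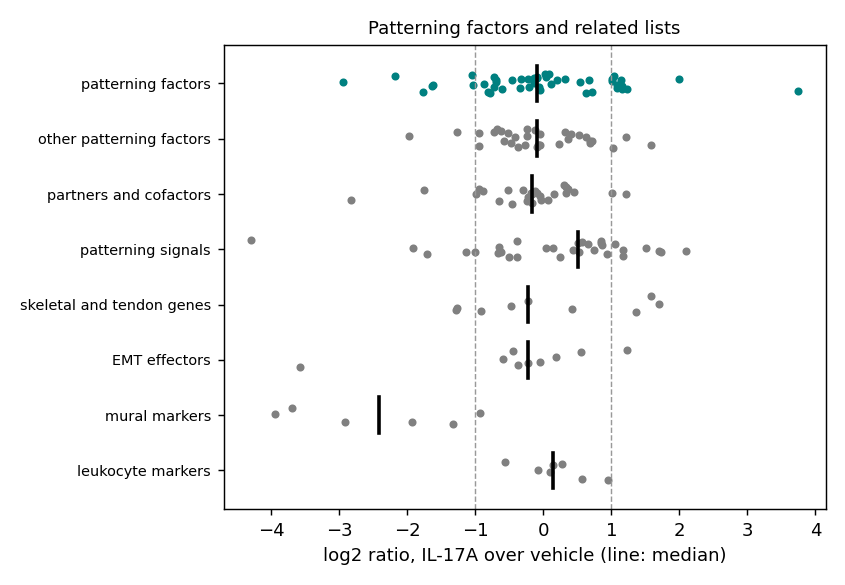
Log2 ratio of IL-17A over vehicle for the measured members of 8 lists, each point a gene and each black line the median, with dashed lines at 2-fold. The patterning factors run from -2.94 to 3.75 around a median of -0.09, and the mural markers have a median of -2.42.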

How the data were processed

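Per the labels' protocols, total RNA of 2 fibroblast cultures was made into libraries with an Illumina stranded mRNA kit. STAR, featureCounts and mm10 are named in the submitters' processing notes. No source used here gives the tool versions, the annotation or the strand setting. The authors deposited raw counts for each gene symbol, without normalization. Total counts were 23559416 for IL-17A and 24427027 for vehicle.

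With 1 library per group no test was possible. TMM factors came from edgeR 4.0.16 (R 4.3.3) over the whole table, and a gene needed at least 50 summed counts. Intervals are exact (Clopper-Pearson, 95%), from each gene's share of counts in the IL-17A library, and for paralogues the exact conditional interval of the odds ratio (scipy 1.17.1). Reads carried no molecular identifiers, so intervals and the floor of 3 counts cover counting error alone. Called means at least 2-fold. Length was that of the transcript with the longest coding sequence in GENCODE M21. The calculation was tested on simulated data. DESeq2 1.42.0 size factors were among the alternatives.

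The members and lists were chosen with earlier results of these data known. All 56 members are named if analysed, and of each further list those past 2-fold, up to 8, except an item that is not reported here. Tcf3, Tcf12, Id1, Id2, Id3, Tnmd, Cdh1, Ptprc, Myh11, Kcnj8, Dcn, Fap, Tek, Krt1, Cd3e and Tyr were named after their values were seen. So were Etv5, Spry2, Aldh1a2, Bglap, Col2a1, Acan, Alpl, Comp and Sp7. Tcf21, Alx1, Six2 and Foxl2 had no row in the count table and so were not analysed here.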

Additional observations from a re-analysis of the deposited data

How the results depend on the processing

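Limits come first from the design: 1 library per group gives no measure of variation between cultures, and low counts leave wide intervals. No paired analysis was possible because each group holds 1 library and no replicate numbers, and leaving out a library was not possible for the same reason. Under DESeq2 size factors all counts stayed within 1.5 times, and 0 factor calls changed. Across the scalings 8 to 11 of the 56 members were higher and 7 lower, and their median log2 ratio ran from -0.16 to -0.09. Total-count scaling shifted the median of all genes to -0.07 and changed 3 factor calls (En1, Trps1 and Runx1), and upper-quartile scaling changed 2 (En1 and Runx1). A prior count of 2 changed 0 calls. The signs of Meis3 and Scx, both near 0, turned under total-count scaling, and that of Meis3 under upper-quartile scaling.

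A minimum of 10 summed counts gave 1090 genes higher and 955 lower in all, 5 and 7 of the further patterning factors, 5 lower skeletal and tendon genes and 2 higher EMT effectors. With no minimum beyond 1 count these were 1239 and 1115, 6 and 7, 5 and 2. A minimum of 200 counts left 275 lower genes in all, 0 lower further factors, 1 lower skeletal gene, 0 lower EMT effectors and 2 lower signals. A 1.5-fold limit gave 1364 genes higher and 1117 lower, 15 lower members of the 56, 7 higher and 7 lower further factors, 6 lower cofactors, 2 lower EMT effectors, and 13 higher and 8 lower signals. A 3-fold limit gave 340 higher and 219 lower, 2 higher members of the 56, 0 higher and 1 lower further factors, 0 higher cofactors, 1 higher and 0 lower skeletal genes, 0 higher EMT effectors, and 3 higher and 3 lower signals. Total-count scaling gave 4 lower further factors and 1 higher and 4 lower cofactors, and upper-quartile scaling 1 higher cofactor.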

Other observations

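Families of the measured factors reach into genes outside the 56, taken from a list of 77 further patterning factors of which 33 were measured. The 2-fold limit was passed upwards by 3 (9.09%) and downwards by 2 (6.06%), near the 5.19% and 3.69% of all measured genes, and the median log2 ratio was -0.09. Foxp4, with 4151 counts with IL-17A and 1938 with vehicle, was higher like Foxp1 and unlike Foxp2. Nfix, a further nuclear factor I gene, had 5616 counts with IL-17A and 11719 with vehicle and stood at -0.94. Ebf2, a factor of brown adipocyte commitment, had 12 and 51 counts and was 3.91-fold (interval 2.06 to 8.06) lower, while Ebf4 stood at 0.63. The genes Gata2 and Mkx were 2.04-fold and 2.99-fold higher. The Iroquois genes Irx1, Irx2, Irx3 and Irx5, which pattern limb and other tissues, all stood below 0, at -0.62, -0.47, -0.42 and -0.58. Foxp4, Mkx and Sox6 each stood on another list too, and Sox6 was 2.42-fold lower. Genes in this paragraph other than Foxp4, Mkx, Gata2, Sox6 and Ebf2 were chosen after their values were seen.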
